A study of Arabidopsis thaliana with 8 samples.

Results

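The comparison set Arabidopsis thaliana seedlings that overexpress MIR394A against seedlings carrying bin2-1, with wild-type Col-0 seedlings for orientation. It covered every gene whose FPKM (fragments counted per kilobase of transcript, scaled to the library's mapped fragments) averaged at least 1 over the 2 MIR394A_OE and 3 bin2-1 libraries. That rule, which uses the level and not the difference, kept 18818 of the 22951 genes listed. The RNA came from whole light-grown seedlings 5 days old, all in the Col-0 background. MIR394A_OE seedlings carry a MIR394A overexpression transgene (2 libraries), bin2-1 seedlings carry the bin2-1 allele (3 libraries), and Col-0 seedlings are wild type (3 libraries). Seeds of every group were held at 4 °C for 4 days and then moved to 22 °C with 16 h of light and 8 h of darkness. The promoter of the transgene, the number of transgenic lines, the zygosity of bin2-1 and the hour of harvest are not given in the labels. No label says that replicates were separate cultures, so the p-values below reflect sample-to-sample spread that may be technical.

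miR394 is a microRNA that directs cleavage of the mRNA of LEAF CURLING RESPONSIVENESS (LCR), an F-box protein that lowers the level of MLP proteins, and it is known for maintaining stem cells in the shoot meristem. BIN2 is a GSK3-like kinase that phosphorylates and inactivates BZR1 and BES1, the transcription factors through which brassinosteroid hormones promote growth. bin2-1 is a gain-of-function allele whose kinase escapes brassinosteroid control, and bin2-1 plants are dwarfs. BZR1 and BES1 normally repress the genes of brassinosteroid synthesis, a negative feedback on hormone level.

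The sequence at the start of the miR394 pathway is shown first, because it defines the one gene of the set with a close match to the microRNA. The mature miR394a, encoded at chr1:7058207-7058226 on the plus strand of TAIR10.1 (RefSeq), has its seed, bases 2 to 8, in capitals on the next line, and miR394b-5p, at chr1:28568821-28568840, has the same sequence. The LCR site falls within coding sequence, in exon 2 of 2, at chr1:9497605-9497624 on the plus strand, with bases that pair with the microRNA in capitals.
miR394a: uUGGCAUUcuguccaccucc
LCR site: GGAGGTtGACAGAATGCCAA

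The LCR site carried 1 mismatch, counting a mismatch as 1 and a G:U pair as 0.5, and LCR was the only one of 18730 searched genes at a score of 2 or less. The best windows of the 10 genes called in the comparison scored 6.0 to 7.5, a level at which 19.5% to 86.5% of all searched genes had a window as good or better. LCR itself had 17.15 and 17.47 FPKM in MIR394A_OE, against 27.01, 23.85 and 15.97 FPKM in bin2-1 and 19.62, 19.62 and 23.86 FPKM in Col-0. Both MIR394A_OE libraries lay below 2 bin2-1 libraries and above 1, so the groups overlapped (log2 fold change -0.31, SE 0.22, adjusted p = 0.464 by limma). LCR and the convergent gene AT1G27350 share 86 exon bases on opposite strands, and the strand setting of the counting is not known here. The MIR394 genes themselves were not analysed here, so overexpression was not checked at its source.

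BIN2 had 64.06 and 105.00 FPKM in MIR394A_OE, against 91.81, 98.70 and 110.86 FPKM in bin2-1 and 94.11, 101.63 and 111.22 FPKM in Col-0. The 2 MIR394A_OE libraries differed more from each other than bin2-1 did from Col-0. For MIR394A_OE against bin2-1 the log2 fold change was -0.28 (SE 0.22, adjusted p = 0.493 by limma), and without MIR394A_OE replicate 1 it was 0.07. Since bin2-1 changes the protein's regulation, its mRNA level does not check the label. BIN2 also shares 158 exon bases with AT4G18720 on the same strand. Of the MLP genes, MLP34 had 721.71 and 467.61 FPKM in MIR394A_OE, both above the 440.70, 413.18 and 459.02 FPKM in bin2-1, and was not called (adjusted p = 0.302 by limma). MLP28, MLP43 and MLP423 overlapped between the groups.

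The 2 MIR394A_OE libraries were unlike each other, which bears on everything that follows. Across genes, their log2(FPKM + 1) values correlated at r = 0.953 and 1383 genes were more than 2-fold apart, while MIR394A_OE replicate 2 and bin2-1 replicate 3 correlated at r = 0.977 with 368 genes more than 2-fold apart. Pairs of bin2-1 libraries correlated at 0.961 to 0.984, and pairs of Col-0 libraries at 0.956 to 0.98. Col-0 was thus nearly as spread out, with 1321 genes more than 2-fold apart between its replicates 1 and 3. Between bin2-1 replicates 1 and 3 there were 960 such genes. In 1113 genes MIR394A_OE replicate 1 lay above all bin2-1 libraries and replicate 2 below them, and in 808 genes the reverse. Values are therefore given also without MIR394A_OE replicate 1. FPKM sums ran between 713459 and 832764, and the low values fit an estimated 9670000 to 11300000 reads per library, at which 3 reads on 1 kb correspond to 0.266 to 0.310 FPKM.

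Between MIR394A_OE and bin2-1, 10 genes were called by limma at an adjusted p under 0.05 over all 18818 genes (0.0531%). Of these, 6 were lower in MIR394A_OE (0.0319%): MRD1, the meiotic crossover factor HEI10, the auxin exporter ABCB19, the auxin-response repressor IAA29, the brassinosteroid oxidase BR6OX2 and the cytochrome P450 CYP71B7. The other 4 were higher (0.0213%): the bHLH factor AT5G50915, the carotenoid hydroxylase BETA-OHASE 2, the cytochrome P450 CYP81D11 and the pectin lyase-like protein AT3G06770. In all, 3577 genes had an unadjusted p under 0.05 (19.0%), and the median log2 fold change over all genes was -0.06. The fit used all 8 libraries for its estimate of spread. With the 5 MIR394A_OE and bin2-1 libraries alone, limma called 0 genes, with 3140 at an unadjusted p under 0.05 and a smallest adjusted p of 0.0561.

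**Figure D1:**
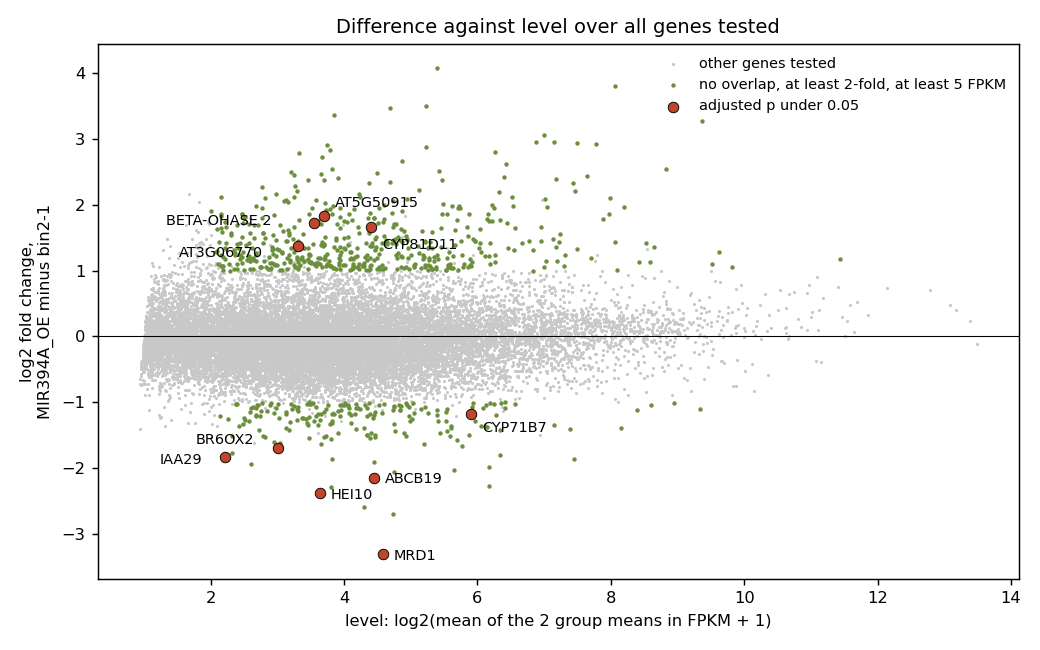
Log2 fold change of MIR394A_OE over bin2-1 (vertical axis) against the level of each gene (horizontal axis, log2 of the mean of the group means in FPKM + 1), 1 point per gene tested. Red points are the 10 called genes and green points the genes without overlap, 2-fold or more apart and at 5 FPKM or more, 500 of them above 0 and 194 below. Many green points lie farther from 0 than the called genes.

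The 2 called genes with the lowest log2 fold changes, MRD1 and HEI10, sit on the same stretch of chromosome 1. MRD1, a gene first found as less expressed in the methionine-overaccumulating mutant mto1, had 2.23 and 4.93 FPKM in MIR394A_OE, against 42.80, 41.89 and 42.54 FPKM in bin2-1 and 32.18, 33.32 and 41.34 FPKM in Col-0. Both MIR394A_OE libraries lay far below every library of the other groups (log2 fold change -3.31, SE 0.25, adjusted p = 0.0032 by limma). HEI10, a RING-type protein required for class I crossovers in meiosis, had 2.32 and 3.79 FPKM in MIR394A_OE, against 17.78, 19.79 and 22.07 FPKM in bin2-1 and 11.61, 13.00 and 17.06 FPKM in Col-0. It fell by 2.38 on the log2 scale (SE 0.23, adjusted p = 0.0158 by limma), again with no overlap. MRD1 (chr1:19963047-19964712, minus strand, TAIR10.1) and HEI10 (chr1:19963267-19966952, plus strand) share 922 exon bases on opposite strands. Without strand their reads there cannot be told apart, and the pair may be 1 signal. The lncRNA AT1G07887, not among the genes listed, shares 839 exon bases with HEI10 on the same strand and 1039 with MRD1 on the opposite strand. Its reads may be counted with either gene. The nearest tested neighbours of MRD1 and HEI10, named here after their values were seen, were not called. On one side, MUM4, a rhamnose synthase, had 22.17 and 26.53 FPKM in MIR394A_OE, against 48.09, 52.84 and 41.12 FPKM in bin2-1, close to the 24.93, 21.85 and 29.90 FPKM of Col-0 (adjusted p = 0.101 by limma). On the other, MSL4 had 4.28 and 5.25 FPKM in MIR394A_OE, against 6.49, 5.42 and 5.61 FPKM in bin2-1 (adjusted p = 0.488 by limma).

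ABCB19, which carries auxin down the stem together with PIN proteins, had 9.01 and 5.40 FPKM in MIR394A_OE, against 35.50, 35.03 and 32.60 FPKM in bin2-1 and 43.48, 37.73 and 31.29 FPKM in Col-0. It was, like MRD1 and HEI10, low in MIR394A_OE against both other groups (log2 fold change -2.14, SE 0.22, adjusted p = 0.0196 by limma, against bin2-1). MRD1 and ABCB19 were also the 2 genes called between MIR394A_OE and Col-0 (0.0106%), with log2 fold changes of -3.06 (adjusted p = 0.0066 by limma) and -2.25 (adjusted p = 0.0189 by limma), a contrast that shares its MIR394A_OE libraries with the one above. The tested genes beside ABCB19 on chromosome 3, AT3G28850 and AT3G28880, overlapped between the groups at log2 fold changes of 0.11 and -0.02. CYP81D11, another called gene but higher in MIR394A_OE, lies nearby at chr3:10788698-10790553, against chr3:10870005-10877578 for ABCB19 (TAIR10.1).

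For the other 3 genes called lower, Col-0 lay nearer to MIR394A_OE and bin2-1 stood apart. IAA29, an Aux/IAA repressor induced by auxin and by PIF factors, had 0.72 and 1.39 FPKM in MIR394A_OE, against 5.64, 6.73 and 6.24 FPKM in bin2-1 and 0.64, 0.42 and 1.11 FPKM in Col-0. It was 1.83 lower on the log2(FPKM + 1) scale (log2 fold change -1.83, SE 0.23, adjusted p = 0.0464 by limma). BR6OX2 (CYP85A2), which makes the last steps to castasterone and brassinolide, had 3.00 and 2.63 FPKM in MIR394A_OE, against 12.96, 11.16 and 9.95 FPKM in bin2-1 and 3.08, 1.93 and 2.32 FPKM in Col-0 (log2 fold change -1.69, SE 0.21, adjusted p = 0.0401 by limma). The MIR394A_OE and Col-0 libraries shared one low range and every bin2-1 library lay above it. CYP71B7 had 35.61 and 36.06 FPKM in MIR394A_OE, against 82.48, 82.18 and 81.28 FPKM in bin2-1 and 44.71, 50.04 and 48.31 FPKM in Col-0, with little spread within any group (log2 fold change -1.17, SE 0.14, adjusted p = 0.0401 by limma). Here the groups formed separate ranges, with Col-0 in the middle.

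The 4 genes called higher all had their lowest values in bin2-1, with no overlap between bin2-1 and Col-0. AT5G50915, a bHLH transcription factor, had 19.90 and 18.48 FPKM in MIR394A_OE, against 3.64, 4.61 and 6.12 FPKM in bin2-1 and 14.34, 17.82 and 11.56 FPKM in Col-0 (log2 fold change 1.82, SE 0.24, adjusted p = 0.0464 by limma). BETA-OHASE 2, which hydroxylates beta-carotene on the way to zeaxanthin, had 17.71 and 16.18 FPKM in MIR394A_OE, against 3.47, 4.99 and 4.97 FPKM in bin2-1 and 8.68, 10.35 and 11.14 FPKM in Col-0 (log2 fold change 1.72, SE 0.20, adjusted p = 0.0381 by limma). In BETA-OHASE 2 the 3 groups formed 3 separate ranges with Col-0 in the middle. CYP81D11, a cytochrome P450 known to respond to foreign compounds and jasmonate, had 35.58 and 26.91 FPKM in MIR394A_OE, against 8.09, 8.90 and 10.37 FPKM in bin2-1 and 26.18, 23.22 and 20.04 FPKM in Col-0 (log2 fold change 1.66, SE 0.20, adjusted p = 0.0381 by limma). AT3G06770 had 12.82 and 13.84 FPKM in MIR394A_OE, against 4.65, 3.80 and 5.20 FPKM in bin2-1 and 8.87, 8.87 and 9.19 FPKM in Col-0 (log2 fold change 1.38, SE 0.18, adjusted p = 0.0464 by limma), again with Col-0 between the other groups.

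Without MIR394A_OE replicate 1, 2 genes were called, MRD1 (log2 fold change -2.87, adjusted p = 0.0094 by limma) and ABCB19 (log2 fold change -2.47, adjusted p = 0.0300 by limma). The other 8 kept their direction with log2 fold changes between -2.12 and 1.77 and adjusted p between 0.192 and 0.537 by limma. Leaving out bin2-1 replicate 1, bin2-1 replicate 2 or Col-0 replicate 2 left 1 call each time. MRD1 was the 1 gene called in 8 of 8 fits that left out a library, and ABCB19 was called in 5 of them.

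**Figure D2:**
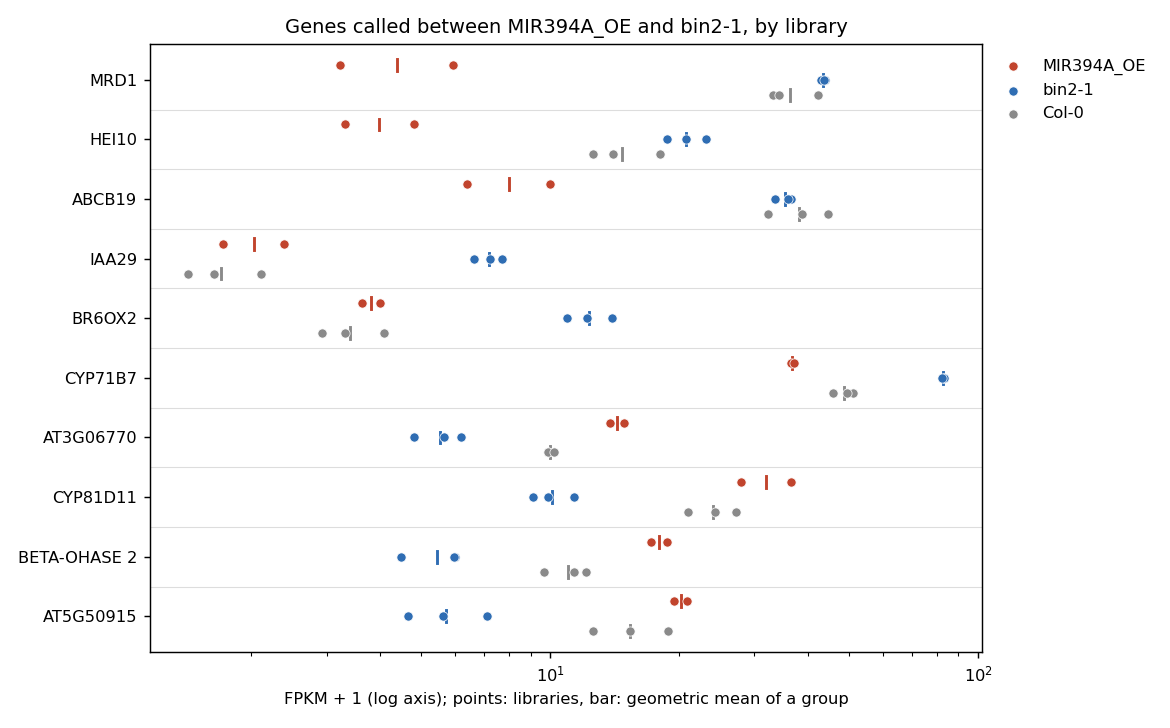
FPKM + 1 of the 10 called genes in every library (log axis), with MIR394A_OE in red above bin2-1 in blue and Col-0 in grey; points are libraries and bars geometric means. MIR394A_OE stands apart from both other groups in MRD1, HEI10 and ABCB19, while in IAA29 and BR6OX2 the MIR394A_OE and Col-0 points share a range.

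The promoters of 2 genes are shown because BETA-OHASE 2 and CYP81D11 were the only 2 of the 10 called genes with a G-box (CACGTG) in the 250 bases before the annotated start, and both were called higher. E-boxes (CANNTG) are in capitals, and the G-box, which is itself an E-box match, begins 151 bases before the start of BETA-OHASE 2 (chr5:21337127-21337376, minus strand, TAIR10.1) and 205 bases before that of CYP81D11 (chr3:10790554-10790803, minus strand).
BETA-OHASE 2: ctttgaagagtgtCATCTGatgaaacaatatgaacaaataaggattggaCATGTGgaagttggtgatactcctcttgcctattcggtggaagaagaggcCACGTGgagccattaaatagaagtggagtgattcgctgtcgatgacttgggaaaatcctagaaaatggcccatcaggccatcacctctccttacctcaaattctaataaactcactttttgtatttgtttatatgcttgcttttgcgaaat
CYP81D11: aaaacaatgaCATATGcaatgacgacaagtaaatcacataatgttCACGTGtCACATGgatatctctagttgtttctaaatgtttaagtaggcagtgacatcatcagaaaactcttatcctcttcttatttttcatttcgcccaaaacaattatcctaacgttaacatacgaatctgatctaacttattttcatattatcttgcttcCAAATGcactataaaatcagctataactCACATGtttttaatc

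A G-box was present in 6.49% of all 27443 promoter windows of that length, and an E-box in 55.3% of them and in 6 of the 10 called genes. The BRRE (CGTGCG or its complement CGCACG), an element that BZR1 binds, was in 0 of the 10 windows and in 1.57% of all windows. The auxin response element (TGTCTC or GAGACA) was in 2 of the 10, ABCB19 and AT3G06770, and in 10.9% of all windows. The evening element (AAAATATCT or AGATATTTT) was in 0 of the 10 and in 2.36% of all windows. These matches on either strand describe letters in these windows only.

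Beyond the called genes, 2802 genes were higher (14.9%) and 3959 lower (21.0%) in both MIR394A_OE libraries than in every bin2-1 library. Among those 2-fold or more apart and at 5 FPKM or more in the group with the higher mean, 500 were higher in MIR394A_OE (2.66%) and 194 were lower (1.03%). The Col-0 mean lay between the other groups and nearer MIR394A_OE for 63.8% of the 500 and 66.5% of the 194. It lay beyond MIR394A_OE for a further 23.2% and 12.9%. Over all tested genes, 26.4% had Col-0 between and nearer MIR394A_OE and 32.0% had it beyond MIR394A_OE. These 694 genes were picked on the MIR394A_OE and bin2-1 difference, so these shares are a description with no test.

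Among the uncalled genes with the smallest p, 4 were lower in both MIR394A_OE libraries. PRN, a pirin protein, had 19.09 and 27.81 FPKM in MIR394A_OE, against 149.68, 122.01 and 83.43 FPKM in bin2-1 and 14.65, 15.96 and 33.06 FPKM in Col-0 (adjusted p = 0.0713 by limma). FUR1, a nucleoside transporter, had 4.61 and 6.89 FPKM in MIR394A_OE, against 18.91, 21.08 and 14.90 FPKM in bin2-1 (adjusted p = 0.0608 by limma). AT5G48430 had a log2 fold change of -2.59 and AT5G35940 one of -1.09. In all 4 the MIR394A_OE and Col-0 ranges overlapped and bin2-1 lay above them.

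The 6 uncalled genes on the higher side had bin2-1 as the lowest group. DREB26, an ERF-family transcription factor, had 171.04 and 119.89 FPKM in MIR394A_OE, against 19.06, 15.74 and 37.34 FPKM in bin2-1 and 143.91, 163.44 and 83.67 FPKM in Col-0 (adjusted p = 0.0608 by limma). AT5G08330, a TCP-family transcription factor named TCP11 in RefSeq's table, had 103.39 and 78.10 FPKM in MIR394A_OE, against 34.48, 27.89 and 34.74 FPKM in bin2-1 (adjusted p = 0.0590 by limma). NDA1, an alternative NAD(P)H dehydrogenase, had 37.78 and 33.06 FPKM in MIR394A_OE, against 9.30, 13.34 and 15.19 FPKM in bin2-1 (adjusted p = 0.0608 by limma). AT5G25240, AT3G22620 and AT2G29370 had log2 fold changes of 2.16, 1.18 and 1.66.

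In brassinosteroid synthesis, 1 of 9 tested genes was called, BR6OX2, and 6 were lower in both MIR394A_OE libraries than in all bin2-1 libraries, with 0 higher. Over all tested genes, 21.0% were lower and 14.9% higher in this way. The median log2 fold change of the 9 was -0.52, and without MIR394A_OE replicate 1 it was -0.44. DWF4, the rate-limiting C-22 hydroxylase, had 8.92 and 5.66 FPKM in MIR394A_OE, against 13.51, 15.11 and 14.50 FPKM in bin2-1 and 6.02, 5.65 and 5.69 FPKM in Col-0 (log2 fold change -0.92, SE 0.20, adjusted p = 0.102 by limma). CYP90D1, a C-23 hydroxylase, had 2.56 and 2.92 FPKM in MIR394A_OE, against 6.30, 8.14 and 7.61 FPKM in bin2-1 and 4.44, 2.17 and 2.81 FPKM in Col-0 (log2 fold change -1.15, SE 0.25, adjusted p = 0.101 by limma). Its homologue ROT3 had a log2 fold change of -0.66. In DWF4 and CYP90D1, as in BR6OX2, bin2-1 was the high group and the MIR394A_OE mean lay nearer to Col-0.

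The 5 tested genes that inactivate brassinosteroids all had positive log2 fold changes, as did 43.5% of all tested genes, with a median of 0.46 and 0 called. UGT73C6, a glucosyltransferase, had 12.33 and 3.88 FPKM in MIR394A_OE, against 1.42, 0.93 and 1.57 FPKM in bin2-1 and 12.01, 5.02 and 4.1 FPKM in Col-0 (adjusted p = 0.119 by limma), and shares 1677 exon bases with a lncRNA on the other strand. Its close homologue DOGT1 had 28.92 and 9.43 FPKM in MIR394A_OE, against 7.72, 7.45 and 7.70 FPKM in bin2-1 (adjusted p = 0.323 by limma). Reads of the UGT73C paralogs may be split between them. In receptors and signalling, 0 of 16 tested genes were called and the median was -0.20, or 0.01 without MIR394A_OE replicate 1. BES1 had 81.59 and 81.96 FPKM in MIR394A_OE, above the 70.13, 54.68 and 59.96 FPKM in bin2-1 (adjusted p = 0.242 by limma), whereas the receptor BRI1 overlapped, with 27.02 and 64.23 FPKM in MIR394A_OE, against 41.13, 48.49 and 53.97 FPKM in bin2-1.

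**Figure D3:**
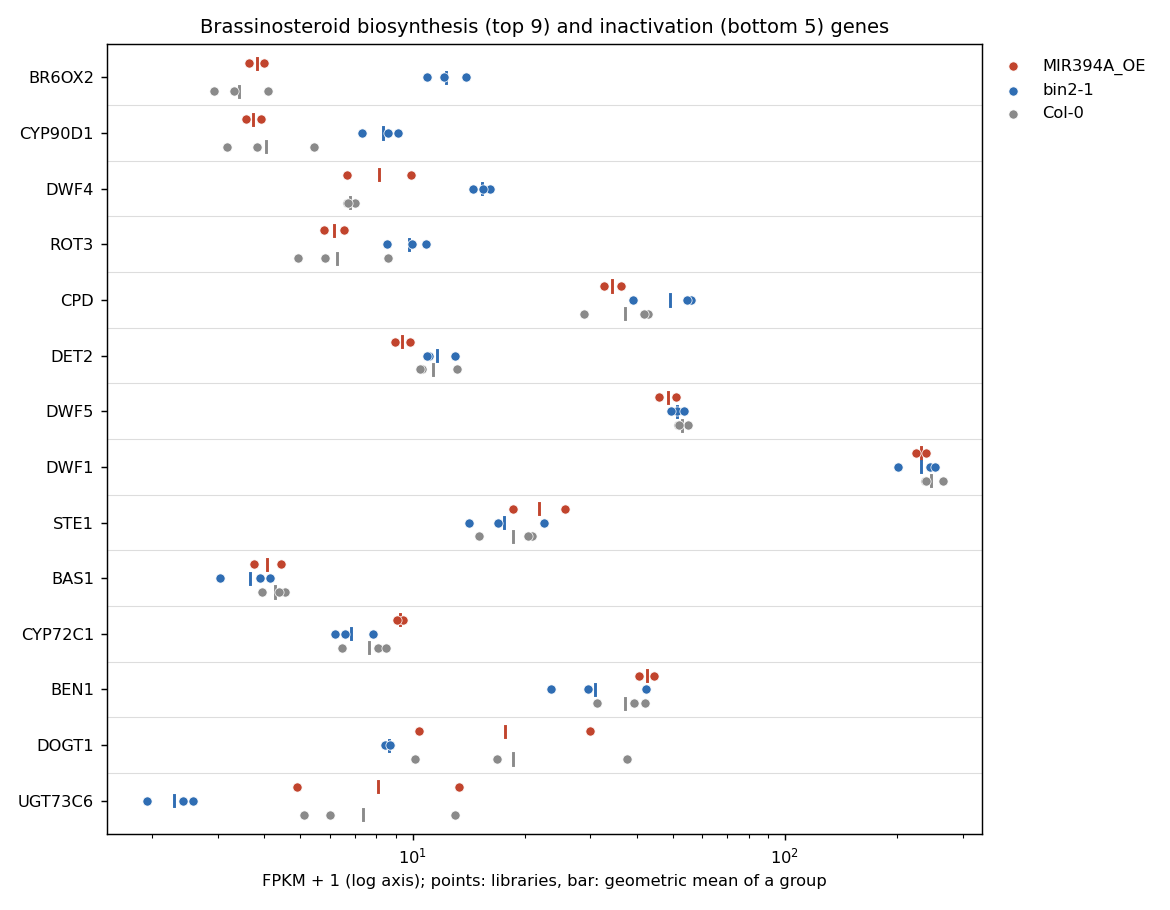
FPKM + 1 (log axis) of 9 brassinosteroid biosynthesis genes, top, and 5 inactivation genes, bottom, in every library, with MIR394A_OE in red above bin2-1 in blue and Col-0 in grey; bars are geometric means. In BR6OX2, CYP90D1, DWF4 and ROT3 the bin2-1 points lie to the right of the MIR394A_OE points, and UGT73C6 shows bin2-1 at the left.

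Of the auxin genes, ABCB19 and IAA29 were called, both lower in MIR394A_OE. In auxin synthesis and GH3 conjugation, 0 of 11 tested genes were called. Of these 11, 9 were negative and 7 were lower without overlap (against 21.0% of all tested genes), with a median of -0.42. A positive log2 fold change was found in 43.5% of all tested genes. TAA1, which makes the auxin precursor indole-3-pyruvate, had 8.06 and 9.34 FPKM in MIR394A_OE, against 18.66, 18.32 and 15.29 FPKM in bin2-1 and 11.16, 7.87 and 12.22 FPKM in Col-0 (adjusted p = 0.107 by limma). GH3.3, an auxin-conjugating enzyme, had 6.09 and 10.87 FPKM in MIR394A_OE, against 34.14, 33.10 and 32.73 FPKM in bin2-1 (adjusted p = 0.153 by limma), but Col-0 itself ran between 3.91 and 26.30 FPKM. YUC5, the next enzyme of auxin synthesis, went the other way at a log2 fold change of 0.95. In auxin transport, 1 of 16 tested genes was called, ABCB19, and 13 were negative with a median of -0.40, or -0.22 without MIR394A_OE replicate 1. The efflux carrier PIN3 had 26.84 and 34.26 FPKM in MIR394A_OE, against 59.72, 58.53 and 40.75 FPKM in bin2-1 (adjusted p = 0.164 by limma). Of 22 Aux/IAA repressors tested, IAA29 was called and the median was -0.10, which turned to 0.02 over members at 5 FPKM or more. The 16 growth-associated SAUR genes had a median of -0.01 with 8 positive and 8 negative. That median had no stable sign, at 0.23 without MIR394A_OE replicate 1, 0.18 without bin2-1 replicate 3, 0.17 with the replicate block, 0.16 over members at 5 FPKM or more, 0.03 with scaling by median of ratios and 0.05 by quantiles.

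Genes of the cell wall split. Among 21 tested XTH genes, whose enzymes cut and rejoin xyloglucan, 16 were positive and 7 were higher without overlap, with a median of 0.61 and 0 called. Of all tested genes, 43.5% were positive and 14.9% higher without overlap. TCH4, a touch-induced XTH, had 1278.91 and 1020.13 FPKM in MIR394A_OE, against 54.08, 81.52 and 365.72 FPKM in bin2-1 and 913.31, 1617.64 and 789.01 FPKM in Col-0 (log2 fold change 3.27, SE 0.68, adjusted p = 0.101 by limma). EXGT-A3 had 203.84 and 153.64 FPKM in MIR394A_OE, against 79.66, 66.30 and 94.37 FPKM in bin2-1 (adjusted p = 0.0886 by limma). Of 17 arabinogalactan protein genes, 14 were positive and 8 higher without overlap, with a median of 0.75, and AGP21 had 121.10 and 87.84 FPKM in MIR394A_OE, against 41.27, 42.75 and 56.66 FPKM in bin2-1 (adjusted p = 0.0924 by limma). AGP21 and AGP16 each overlap a gene on the other strand.

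The 8 genes of primary wall cellulose synthesis all had negative log2 fold changes, with a median of -0.61, but that rested on 1 library. Of all tested genes, 43.5% had a positive log2 fold change. CESA1, a catalytic subunit, had 70.62 and 134.23 FPKM in MIR394A_OE, against 140.54, 175.26 and 186.44 FPKM in bin2-1 and 117.06, 132.96 and 156.05 FPKM in Col-0 (adjusted p = 0.189 by limma). CSI1, which links the synthase complex to microtubules, had 12.90 and 46.56 FPKM in MIR394A_OE, against 36.34, 48.82 and 62.07 FPKM in bin2-1. MIR394A_OE replicate 2 lay inside the bin2-1 range for CSI1, and without replicate 1 the list's median was -0.08. The 12 suberin genes, which build the lipid barrier of root endodermis and periderm, had a median of 0.70 and 0 called. Of these, 8 were higher without overlap (against 14.9% of all tested genes). GPAT5, an acyltransferase of suberin synthesis, had 5.53 and 4.67 FPKM in MIR394A_OE, against 1.89, 1.76 and 2.46 FPKM in bin2-1 and 5.05, 4.93 and 4.51 FPKM in Col-0 (adjusted p = 0.0988 by limma). Root and root hair markers leaned the other way, at a median of -0.21 with 11 of 12 tested markers negative and a summed level of 108.02 and 120.59 FPKM in MIR394A_OE, against 133.92 to 152.65 FPKM in bin2-1. Their part in the other differences was not tested, and in whole seedlings fewer cells of a type and less RNA per cell cannot be told apart.

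Water channel genes all had higher levels in MIR394A_OE on the fitted scale, without a call. All 13 plasma membrane aquaporin genes had positive log2 fold changes between 0.24 and 1.01, 9 were higher without overlap, the median was 0.77 and 0 were called, and without MIR394A_OE replicate 1 the median was 0.49. For comparison, 43.5% of all tested genes were positive and 14.9% were higher without overlap. PIP3 had 519.73 and 403.39 FPKM in MIR394A_OE, against 282.97, 242.70 and 205.48 FPKM in bin2-1 and 395.60, 330.04 and 409.58 FPKM in Col-0 (adjusted p = 0.102 by limma). The 6 vacuolar aquaporins were also all positive, with a median of 0.39, or 0.19 without MIR394A_OE replicate 1, and the lowest member at 0.01. DELTA-TIP had 258.21 and 163.02 FPKM in MIR394A_OE, against 136.83, 104.79 and 74.94 FPKM in bin2-1 (adjusted p = 0.127 by limma). Against Col-0, which both values share, the plasma membrane list had a median of 0.24 in MIR394A_OE and -0.45 in bin2-1, and the vacuolar list -0.04 and -0.35. PIP paralogs are similar in sequence, and how the counting treated reads that match several of them is not known here.

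Genes of the chloroplast and of pigments were mostly higher in MIR394A_OE. Of 25 nuclear photosynthesis genes, 23 were positive and 14 higher without overlap, with a median of 0.53, or 0.31 without MIR394A_OE replicate 1, and 0 called. The shares over all tested genes were 43.5% positive and 14.9% higher without overlap. LHCB2.1, a light-harvesting protein of photosystem II, had 1423.60 and 816.13 FPKM in MIR394A_OE, against 511.01, 426.98 and 401.07 FPKM in bin2-1 and 915.40, 626.95 and 776.35 FPKM in Col-0 (adjusted p = 0.101 by limma), and its near-identical copy LHCB2.2 may share its reads. The list's summed level overlapped between the groups, at 90355 and 72685 FPKM in MIR394A_OE, against 73169, 65118 and 55050 FPKM in bin2-1. In the carotenoid pathway, 1 of 13 tested genes was called, BETA-OHASE 2, and its homologue BETA-OHASE 1 had 21.73 and 23.81 FPKM in MIR394A_OE, against 15.24, 14.55 and 12.25 FPKM in bin2-1 (adjusted p = 0.112 by limma). In flavonoid and anthocyanin synthesis, 10 of 12 tested genes were positive with a median of 0.41 and 0 called. LDOX, which makes anthocyanidins, had 14.13 and 6.59 FPKM in MIR394A_OE, against 0.66, 1.45 and 1.69 FPKM in bin2-1 and 8.54, 4.56 and 4.44 FPKM in Col-0 (adjusted p = 0.0713 by limma). The preceding enzyme DFR had 11.04 and 4.55 FPKM in MIR394A_OE, against 1.08, 0.93 and 1.82 FPKM in bin2-1, with no overlap either (adjusted p = 0.101 by limma).

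Clock genes, which mark the time of day, had medians of opposite sign by phase. Of 9 morning-phased genes, 8 were positive and 7 higher without overlap, with a median of 0.84, or 0.70 without MIR394A_OE replicate 1, and 0 called. Among all tested genes, 43.5% were positive and 14.9% higher without overlap. The central morning repressor CCA1 had 25.62 and 21.92 FPKM in MIR394A_OE, against 9.95, 10.61 and 12.16 FPKM in bin2-1 and 20.06, 14.64 and 9.36 FPKM in Col-0 (adjusted p = 0.119 by limma), and its partner LHY had 39.66 and 40.45 FPKM in MIR394A_OE, against 18.43, 21.27 and 26.90 FPKM in bin2-1 (adjusted p = 0.110 by limma). Both lay above every bin2-1 library. Of 8 evening-phased genes, 7 were negative, with a median of -0.55, or -0.17 without MIR394A_OE replicate 1. PRR5 had 11.17 and 19.91 FPKM in MIR394A_OE, against 22.78, 33.44 and 30.51 FPKM in bin2-1 (adjusted p = 0.144 by limma). The summed morning level was 205.18 and 218.03 FPKM in MIR394A_OE, against 105.80 to 150.93 FPKM in bin2-1, and the summed evening level was 162.99 and 249.89 FPKM in MIR394A_OE, against 225.36 to 290.36 FPKM in bin2-1. The part of the clock phase in the photosynthesis, pigment and hormone gene values was not tested.

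The highest median of the 46 lists belonged to touch and rapid stress response genes, which react within minutes to handling, wounding or calcium signals. All 12 were positive and 8 were higher without overlap, with a median of 1.55, or 0.83 without MIR394A_OE replicate 1, and 0 called. Across all tested genes, 43.5% were positive and 14.9% higher without overlap. TCH2, a calmodulin-like protein, had 555.41 and 269.29 FPKM in MIR394A_OE, against 59.16, 90.58 and 134.30 FPKM in bin2-1 and 367.17, 336.03 and 163.00 FPKM in Col-0 (log2 fold change 2.1, SE 0.45, adjusted p = 0.101 by limma). WRKY18, a transcription factor of defence, had 163.20 and 185.45 FPKM in MIR394A_OE, against 24.52, 44.28 and 146.32 FPKM in bin2-1, where replicate 3 came close to the MIR394A_OE range. The summed level of the list overlapped for the same library, at 2524.12 and 2717.25 FPKM in MIR394A_OE, against 1145.20, 1542.31 and 2720.97 FPKM in bin2-1. Of 11 ERF factors, 10 were positive, with a median of 0.90, and ERF6 had 218.58 and 70.38 FPKM in MIR394A_OE, against 16.89, 25.21 and 26.40 FPKM in bin2-1 and 326.41, 141.51 and 52.11 FPKM in Col-0 (adjusted p = 0.139 by limma). Of 14 salicylic acid genes, 10 were positive with a median of 0.56, or 1.04 without bin2-1 replicate 3. Its regulator CBP60G had 22.41 and 17.89 FPKM in MIR394A_OE, against 2.81, 2.58 and 11.26 FPKM in bin2-1 (adjusted p = 0.185 by limma). PR5 of the same list went the other way, at 4.00 and 5.72 FPKM in MIR394A_OE, against 11.39, 7.92 and 11.50 FPKM in bin2-1 (adjusted p = 0.179 by limma). Without overlap, 4 genes of that list were higher and 1 was lower, against 14.9% and 21.0% of all tested genes. For the touch list the median against Col-0 was 0.00 for MIR394A_OE and -1.64 for bin2-1, with Col-0 shared by both values. Col-0 itself varied widely, with a mean log2(FPKM + 1) over the list of 7.06, 5.97 and 4.93 in replicates 1 to 3. The bin2-1 libraries had 4.08, 4.55 and 5.04, so Col-0 replicate 3 lay inside their range.

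**Figure D4:**
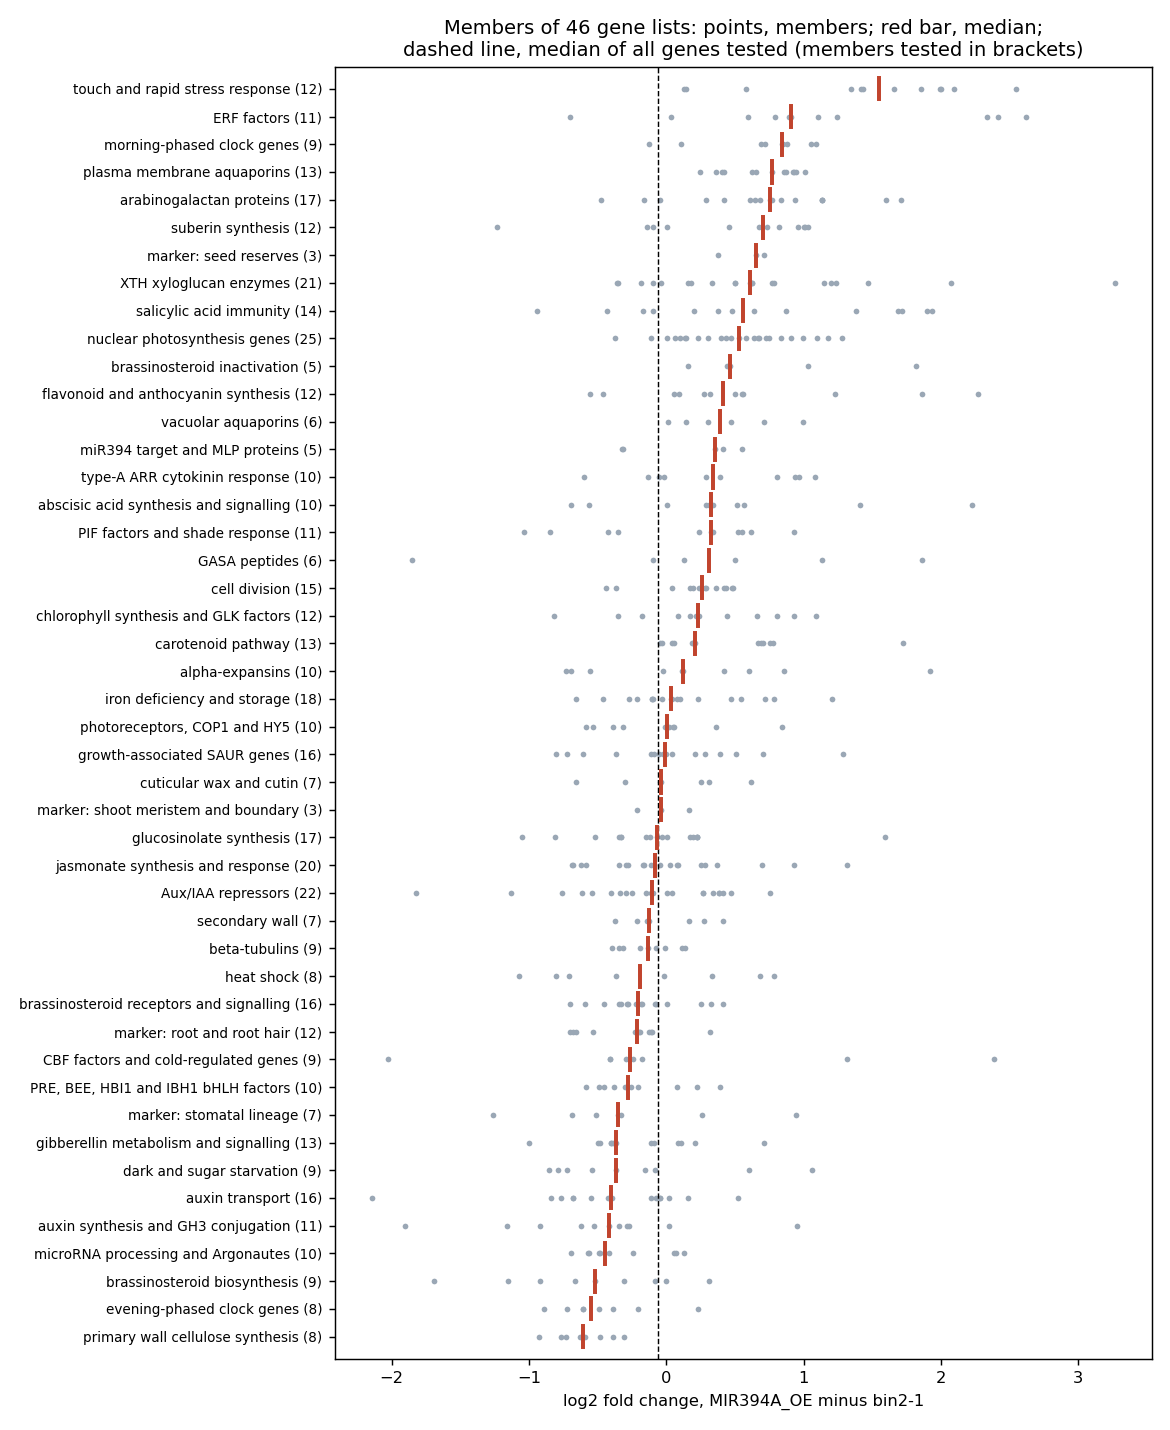
Log2 fold change of MIR394A_OE over bin2-1 for every tested member (points) of the 46 gene lists, ordered by their median (red bars), with the number of members tested in brackets. The dashed line marks the all-gene median of -0.06; touch and rapid stress genes lie highest at a median of 1.55 and primary wall cellulose genes lowest at -0.61.

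In each of the other lists 0 members were called. GASA6, a gibberellin-regulated peptide gene, had 495.76 and 297.37 FPKM in MIR394A_OE, against 87.44, 123.94 and 106.23 FPKM in bin2-1 and 333.42, 254.69 and 158.62 FPKM in Col-0 (adjusted p = 0.0810 by limma), with no overlap. AT5G14920 of the same list went the other way, at 29.94 and 156.89 FPKM in MIR394A_OE, against 223.08, 270.51 and 264.11 FPKM in bin2-1 (adjusted p = 0.217 by limma). The 10 type-A response regulators of cytokinin signalling had a median of 0.34, with 6 positive and 4 negative. ARR9 had 35.50 and 22.61 FPKM in MIR394A_OE, against 11.96, 17.47 and 13.20 FPKM in bin2-1. RR3 was lower without overlap, at 6.39 and 6.32 FPKM in MIR394A_OE, against 8.11, 11.16 and 11.46 FPKM in bin2-1. PP2CA, a phosphatase that damps abscisic acid signalling, had 41.29 and 29.07 FPKM in MIR394A_OE, against 9.72, 11.84 and 16.60 FPKM in bin2-1 (adjusted p = 0.109 by limma). ABI1 of the same list went the other way at a log2 fold change of -0.56, with overlap. Of the 10 tested abscisic acid genes, 8 were positive and 2 negative. PIF3, a phytochrome-interacting factor, had 13.18 and 16.85 FPKM in MIR394A_OE, against 32.73, 22.63 and 28.56 FPKM in bin2-1 (adjusted p = 0.131 by limma). Its list of PIF and shade-response genes leaned the other way, at a median of 0.33 with 7 of 11 tested genes positive. Without overlap, 6 of them were higher and 1, PIF3, was lower. Over all tested genes, 43.5% were positive, 14.9% were higher without overlap and 21.0% lower without overlap. The stomatal lineage markers had a median of -0.35, with a summed level of 58.63 and 50.79 FPKM in MIR394A_OE, against 77.21, 71.70 and 50.37 FPKM in bin2-1. Shoot meristem and boundary markers, of which 3 of 6 were tested, had a median of -0.04. Of the seed reserve markers, 3 of 6 were tested and all 3 were positive, with a summed level over the list's tested members of 8.04 and 9.77 FPKM in MIR394A_OE, against at most 6.21 FPKM in each bin2-1 library. The part of these markers in the other differences was not tested. Cell division genes were positive in 13 of 15 with a median of 0.26, or 0.10 without MIR394A_OE replicate 1, and the cytokinesis syntaxin SYP111 had 38.73 and 31.24 FPKM in MIR394A_OE, against 29.01, 22.22 and 23.49 FPKM in bin2-1. Gibberellin genes had a median of -0.37 that became -0.059 without MIR394A_OE replicate 1, and dark and sugar starvation genes one of -0.37 that became 0.05. The 10 microRNA processing genes had a median of -0.45 that became 0.01 without MIR394A_OE replicate 1. AGO1, the main microRNA effector, had 36.18 and 77.62 FPKM in MIR394A_OE, against 77.13, 83.02 and 78.38 FPKM in bin2-1, so replicate 2 lay within the bin2-1 range. Over all lists, 527 of 587 members were tested, of which 1 was called higher and 3 lower. Among all tested genes these shares were 0.0213% and 0.0319%. The lists were chosen with earlier results of these data known, so the counts are a description only.

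**Figure D5:**
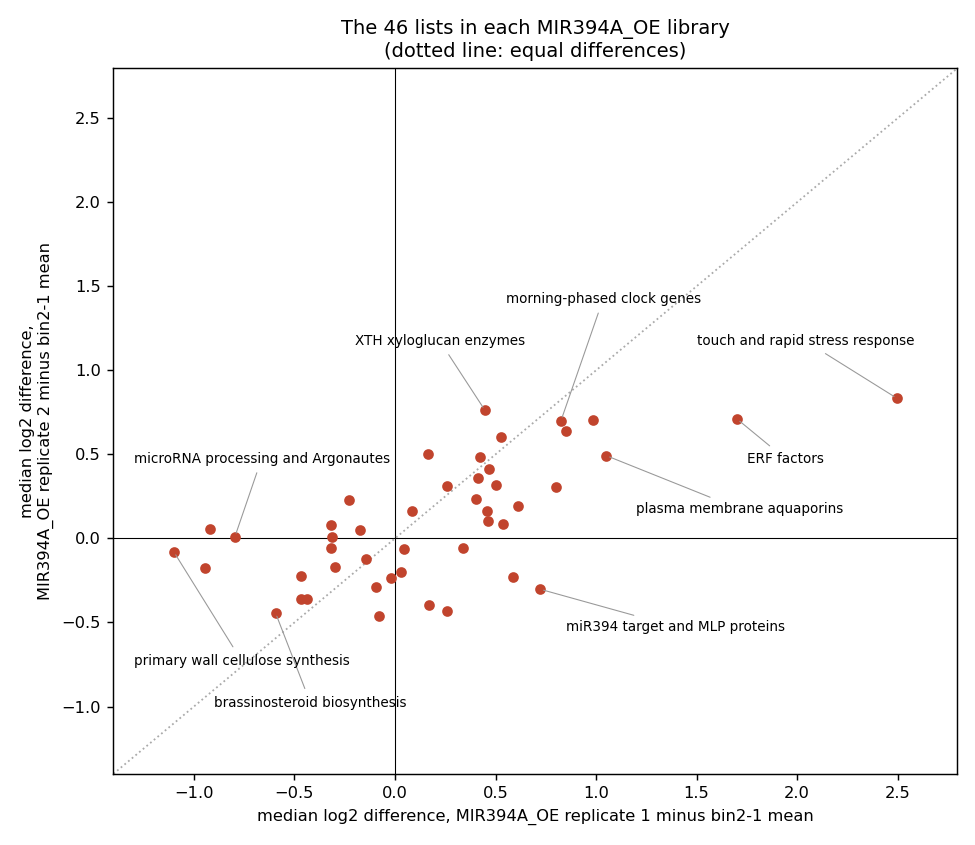
Median log2 difference of each of the 46 lists from the bin2-1 mean, in MIR394A_OE replicate 1 (horizontal axis) and replicate 2 (vertical axis), 1 point per list; the dotted line marks equal differences. Both axes share the bin2-1 mean. Touch genes were at 2.50 and 0.83, cellulose genes at -1.10 and -0.08, and brassinosteroid synthesis genes at -0.59 and -0.44.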

How the data were processed

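The authors deposited 1 table of FPKM per gene for 8 RNA-seq libraries; the submitters' processing notes list Bowtie2 and HISAT without roles, and no source used here gives the genome build, annotation, counter or strand setting. Libraries were made with Illumina's TrueSeq RNA kit (labels' spelling), per the labels' protocols. Values were taken as log2(FPKM + 1), so fold changes of low genes are understated. limma 3.58.1 (R 4.3.3; lmFit, eBayes with trend and robust) fitted a mean per group over all 8 libraries with 5 residual degrees of freedom, two-sided, with Benjamini-Hochberg adjustment over 18818 genes. On simulated data with 200 changed genes among 18818 in 10 runs, this fit of MIR394A_OE against bin2-1 called 39.0% of changes of 1, 68.4% of 1.5, 86.4% of 2 and 96.6% of 3 on the log2 scale, with 4.72% false calls. The simulated noise was normal, independent between genes and equally wide in every group. Changes were placed only in genes above 5 FPKM. The unlike MIR394A_OE libraries were not modelled, so these shares do not carry over to the real data. Members and gene lists were chosen with earlier results of these data known. Named were LCR and BIN2; per direction the called genes, filled to 10 with the smallest p among genes at least 2-fold apart, without overlap and at 5 FPKM or more; called list members; and up to 4 members, by p, of lists whose median lay 0.3 or more from that of all genes. Other list members named for their role were chosen after their values were seen. Of 22951 gene numbers, 22798 matched RefSeq's TAIR10.1 table, the source of symbols and positions. Depth was estimated from the steps of low FPKM among 1646 genes, as the depth at which the largest share of low values was whole within 0.1 read. That share was 87.6% to 92.3% of the 289 to 355 values used per library. It would be 20.0% by chance at a depth not chosen in this way. Alternatives covered pseudocount, filter, scaling, fitted libraries, moderation, minimum fold change, a replicate block and each library left out.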

Additional observations from a re-analysis of the deposited data

How the results depend on the processing

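Against 10 called genes, limma called 6 with a pseudocount of 0.1 and 6 with 0.5, 3 with no filter on low values, 16 with quantile scaling, 0 with the 5 libraries alone and 3 with a minimum fold change of 1.2. Leaving out each library in turn gave 1 to 2319 calls, the 2319 without MIR394A_OE replicate 2, where the lone remaining library is assumed to vary like the other groups; without bin2-1 replicate 3 it gave 86, without Col-0 replicate 3 39 and without Col-0 replicate 1 21. Chosen after seeing the data, leaving out MIR394A_OE replicate 1 with Col-0 replicate 1 gave 2 and a threshold of 0.10 gave 76, with 52 higher and 24 lower. The cause was not tested. With the replicate number as a block, limma called 9 genes, 5 of them among the 10. Deviations of same-numbered libraries correlated at 0.323 and 0.0314. With 2 MIR394A_OE libraries the deviations of one mirror those of the other, so these values cannot decide whether the numbers mark a pairing. The main fit used no pairing, and an effect shared by replicate number was not tested further. Without MIR394A_OE replicate 1, with or without Col-0 replicate 1, BIN2 turned to 0.067, MLP43 to -0.093 and MLP28 to -0.32; over all fits that left out 1 library they ran from -0.64 to 0.067, -0.093 to 1.19 and -0.32 to 1.03. Depth was an estimated 9670000 to 11300000 reads per library, and its part in the number of calls was not tested.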
